A study of Rattus norvegicus with 12 samples.

Results

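The miR-30 family was followed through sorted cells and tissue of the rat medial entorhinal cortex (MEC). Its members were taken by name from the assays of a TaqMan qPCR card: miR-30a, miR-30b, miR-30c, miR-30d and miR-30e, which are 5 of the 375 miRNA assays on the card. All 5 gave a determined signal in all 12 samples. The study measured miRNAs in stellate cells of MEC layer II, a principal neuron type that sends its axons to the dentate gyrus of the hippocampus, and in the other cells of the same cortex. Long Evans rat pups received the fluorescent tracer DiO in the dentate gyrus of both hemispheres on postnatal day 2, and the MEC was dissociated and sorted on day 4 or 5. Cells positive for DiO form the stellate group (n = 5), and DiO-negative cells of the same injected pups form the non-stellate group (n = 5). The tissue group (n = 2) is dissected, unsorted MEC of Long Evans rats aged 23 days, for which no injection is given.

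These groups have limits as models. The sort rested on the dye, so the non-stellate group is a mixture of every cell type without dye, and stellate cells that took up none would be in it. Tissue and sorted cells differed in age, in dissociation and sorting, in the RNA extraction kit and in the volumes used for preamplification and reverse transcription of the scarce sorted RNA, and these cannot be told apart. Sorted cells were extracted with the RNAqueous Micro kit. For tissue the sample labels name the mirVana kit, whereas the methods of the study name a Norgen kit for whole MEC tissue, and the conflict could not be settled. In non-stellate samples 3 and 5, a description field calls the cells labelled, while title, source and fluorescence place both in the non-stellate group. They were kept there, and values without them are given below.

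MiRNAs are short RNAs that guide Argonaute proteins to messenger RNAs, mostly by pairing of the seed, bases 2 to 8 of the miRNA, and so lower the output of their targets. Members of a family share a seed and therefore a large part of their predicted targets, while the bases after the seed differ. The miR-30 family is conserved among vertebrates and abundant in many tissues including brain, and miR-30a is known as a regulator of brain-derived neurotrophic factor in cortex and of the autophagy gene Beclin 1.

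Mature sequences were taken from RefSeq (build GRCr8), where 3 of the 5 members could be matched by name. They are shown with a further assay of the card, miR-384-5p, because it carries the same seed under another name. The capitals mark the seed.

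miR-30a: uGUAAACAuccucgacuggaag
miR-30e: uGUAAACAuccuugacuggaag
miR-30c: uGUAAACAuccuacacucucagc
miR-384-5p: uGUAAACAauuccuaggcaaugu

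Counted from 1 at the 5′ end, miR-30e differs from miR-30a only by C13U. MiR-30c has its first 12 bases in common with miR-30a and differs from it at 5 positions without gaps, C13A, G14C, G18C, G19U and A20C. MiR-384-5p has only its first 8 bases in common with miR-30a and differs at 10 positions. Among the 693 mature miRNAs of the RefSeq table, miR-384-5p was the 1 non-member with this seed. MiR-30b and miR-30d are named only. Assays for members that differ by so little may read each other's template, and such cross-reaction was not tested here. No assay of the card (0) was for a passenger arm of a miR-30 hairpin.

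The 3 matched members come from a pair of neighbourhoods in the genome. Mature miR-30e lies at chr5:139637504-139637525 on the minus strand and a copy of miR-30c, from Mir30c1, at chr5:139634505-139634527 on the same strand. Their hairpins are 2906 bases apart, and both are inside Nfyc, a protein-coding gene for a subunit of the transcription factor NF-Y. Mature miR-30a lies at chr9:33233946-33233967 on the plus strand, and the second copy of miR-30c, from Mir30c2, at chr9:33253695-33253717 on the same strand, with 19670 bases between the hairpins. Mir30c2 is within the annotated pseudogene Rbx1-ps1 and the long noncoding RNA gene LOC134480562. MiR-384-5p lies at chrX:74490939-74490961 on the minus strand, within the long noncoding RNA gene LOC103690870. The gene table used gives no exons, so exonic and intronic positions were not separated. The 2 copies of miR-30c give the same mature sequence, and the card cannot tell them apart.

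Levels are given as Ct, the PCR cycle at which an assay crosses its detection threshold. Ct is on a log2 scale and falls as abundance rises, and 40 stands for an undetermined well. U6-scaled Ct is Ct minus the mean Ct of the 4 wells of U6, a small nuclear RNA of the spliceosome, in the same sample. Assays differ in efficiency, so the distance between assays is not a ratio of molecules. A difference of 1 assay between samples is read as a log2 difference in abundance. That reading takes a doubling per cycle, which was not measured. Between 234 and 260 miRNA assays were determined in stellate samples, between 203 and 241 in non-stellate samples, and 292 and 302 in the tissue samples. The mean U6 Ct ranged from 16.5 to 19.0, from 17.7 to 20.2 and from 15.6 to 16.0 in these groups. The median Ct of the 176 miRNA assays determined in all 10 sorted samples ranged from 28.0 to 29.5, from 28.9 to 30.9 and was 23.7 in both tissue samples. The U6 wells of non-stellate 3 scattered with an SD of 0.817 cycles, the widest of all samples, against a pooled SD of 0.366.

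MiR-30c and miR-30b gave the earliest signals of the family in every sample. The U6-scaled Ct of miR-30c was 7.59, 6.10, 7.36, 6.61 and 7.39 in stellate samples 1 to 5. It was 6.63, 7.24, 8.40, 6.45 and 6.56 in non-stellate samples 1 to 5, and 2.32 and 2.85 in tissue samples 1 and 2. The sorted groups overlapped, with non-stellate 3 the latest, and both tissue samples lay far from all sorted samples. Ranked by Ct among all determined miRNA assays of its own sample, miR-30c stood at place 16 to 27 in stellate samples, 12 to 20 in non-stellate samples and 5 in both tissue samples.

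The U6-scaled Ct of miR-30b was 7.82, 6.99, 7.82, 7.46 and 7.67 in stellate samples 1 to 5, the narrowest spread of any member in that group. In non-stellate samples 1 to 5 it was 7.26, 7.92, 9.02, 6.84 and 7.05, and in the tissue samples 2.92 and 3.30. MiR-30b followed miR-30c closely, and again non-stellate 3 was the latest sorted sample while tissue stood apart. Its place by Ct was 24 to 38 in stellate samples, 23 to 27 in non-stellate samples and 8 to 9 in tissue.

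MiR-30a, the member known best from the cortex, gave U6-scaled Ct values of 11.4, 9.11, 10.3, 9.39 and 10.4 in stellate samples 1 to 5. The values were 10.1, 10.5, 11.7, 9.73 and 9.70 in non-stellate samples 1 to 5, and 5.64 and 5.88 in tissue. Stellate 1 and non-stellate 3 were the latest of their groups, and the sorted groups overlapped almost entirely. MiR-30a took places 66 to 93, 61 to 77 and 42 to 44 in stellate, non-stellate and tissue samples.

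MiR-30e, which differs from miR-30a at a single position, gave U6-scaled Ct values of 12.1, 9.93, 10.6, 10.1 and 11.3 in stellate samples 1 to 5. The values were 11.2, 10.8, 11.5, 9.78 and 9.90 in non-stellate samples 1 to 5, and 6.04 and 6.35 in tissue. The stellate values of miR-30e were ordered across the samples as those of miR-30a were, with stellate 1 latest and stellate 2 earliest. Its places by Ct were 86 to 106, 65 to 95 and 49 to 50.

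MiR-30d gave the latest signal of the family in all 12 samples and varied most between sorted samples. Its U6-scaled Ct was 14.1, 11.3, 11.8, 11.4 and 13.0 in stellate samples 1 to 5. It was 12.1, 12.9, 15.0, 11.8 and 12.1 in non-stellate samples 1 to 5, and 8.08 and 8.15 in tissue. Its places were 121 to 157, 114 to 160 and 93 to 96. Stellate 1 and non-stellate 3 were again the latest of their groups.

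As group means, U6-scaled Ct in stellate and in non-stellate samples was 7.01 ± 0.632 and 7.05 ± 0.812 for miR-30c (SD, n = 5 each). It was 7.55 ± 0.348 and 7.62 ± 0.883 for miR-30b, 10.1 ± 0.902 and 10.3 ± 0.802 for miR-30a, 10.8 ± 0.913 and 10.6 ± 0.766 for miR-30e, and 12.3 ± 1.22 and 12.8 ± 1.29 for miR-30d. The tissue means were 2.58 ± 0.373, 3.11 ± 0.276, 5.76 ± 0.169, 6.19 ± 0.225 and 8.12 ± 0.050 in that order (SD, n = 2). No gap between the sorted groups exceeded the spread between their replicates, and each gap to tissue did.

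**Figure D1:**
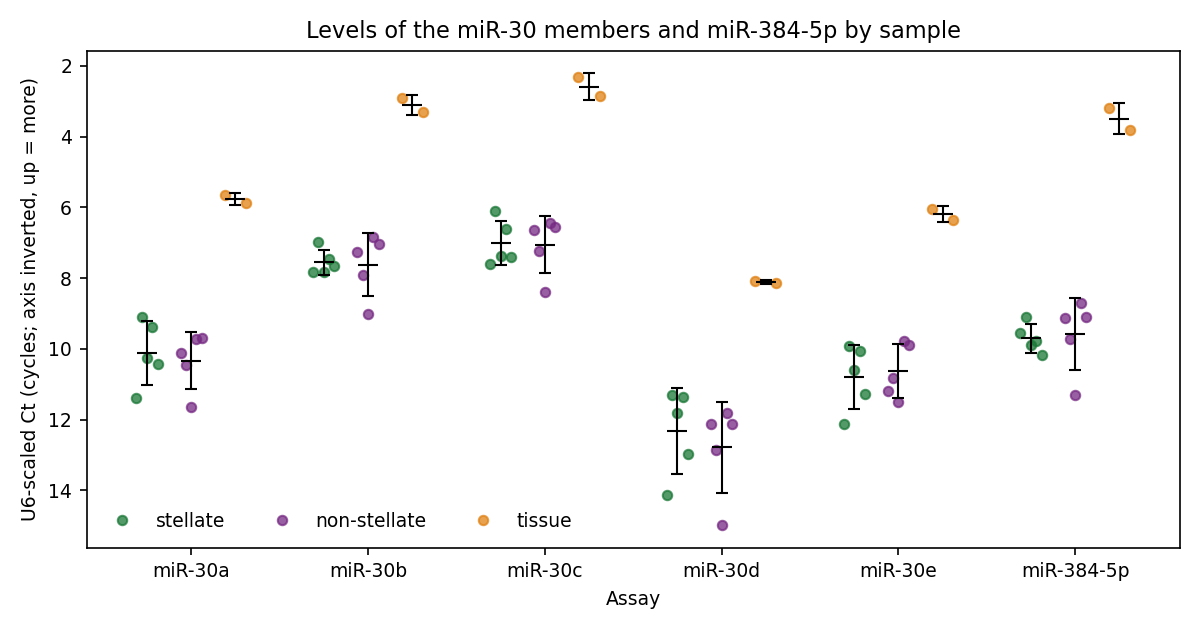
U6-scaled Ct in cycles (vertical axis, inverted so that up is more) of the 5 members and of miR-384-5p in each of the 12 samples. Points are samples, and the bars show the group mean and SD. Stellate and non-stellate samples overlap for every assay, and both tissue samples lie above all 10 sorted samples, at 2.32 and 2.85 for miR-30c against 6.10 or later in sorted cells.

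The order of the members by Ct was the same in 11 of the 12 samples: miR-30c first, then miR-30b, miR-30a, miR-30e and miR-30d. In non-stellate 3, miR-30e came before miR-30a. The neighbours miR-30a and miR-30e were the closest beside miR-30b and miR-30c. MiR-30e minus miR-30a was 0.69 ± 0.207 cycles in stellate samples, above 0 in all 5, and 0.30 ± 0.465 in non-stellate samples (SD, n = 5 each), where the spread included 0. In both tissue samples miR-30e was the later, by 0.39 and 0.47 cycles. The other neighbours kept their order in all samples.

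Stellate and non-stellate cells were compared to ask whether any member marks the projection neurons. No member (0 of 5) differed, with log2 differences, stellate minus non-stellate, of 0.22 for miR-30a, 0.07 for miR-30b, 0.04 for miR-30c, 0.47 for miR-30d and -0.17 for miR-30e. Their standard errors were 0.59, 0.52, 0.54, 0.76 and 0.59, each larger than the difference itself, and limma's adjusted p ran from 0.826 to 0.995. Of the 222 miRNA assays tested, 0% were called higher and 0% lower by limma's adjusted p, and 7.21% (16 assays) had an unadjusted p under 0.05, none of them a member. A missed threshold does not show that the levels were equal. Without non-stellate 3 and 5, the differences of the members became -0.0037, -0.21, -0.24, -0.047 and -0.21, and again 0 members passed. Without non-stellate 3 alone, the differences of miR-30a to miR-30d were -0.11, -0.29, -0.29 and -0.082.

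The whole card was shifted in this comparison, with a median log2 difference of 0.46 over the 222 assays, and the members are also given relative to it. Relative to that median, the members lay between -0.63 and 0.01. The median shift differed between replicate numbers, at -0.45, 1.27, 1.77, 0.02 and -0.60 in pairs 1 to 5, where a pair is the stellate and non-stellate sample of 1 biological replicate. MiR-30c moved with it, at -0.96, 1.14, 1.04, -0.16 and -0.83, as did miR-30b, at -0.56, 0.93, 1.21, -0.62 and -0.62. MiR-30e was -0.94, 0.90, 0.89, -0.28 and -1.39. These members lay below the median of all assays in 5 of 5 pairs. For miR-30b the distance to that median was only -0.11 in pair 1 and -0.02 in pair 5. The share of all assays below the median in 5 of 5 pairs was not counted. MiR-30a was -1.26, 1.36, 1.40, 0.34 and -0.73 and lay above the median in 2 of 5 pairs. MiR-30d had the widest range, at -2.004, 1.54, 3.19, 0.46 and -0.84, above the median in 3 of 5 pairs.

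Median centring removes that shift by subtracting the median Ct of the 176 assays from each sample. On this scale the log2 differences were -0.17 ± 0.27 for miR-30a, -0.33 ± 0.27 for miR-30b, -0.35 ± 0.23 for miR-30c, 0.07 ± 0.40 for miR-30d and -0.56 ± 0.32 for miR-30e (SE, limma, 5 against 5). The signs of miR-30a, miR-30b and miR-30c thus turned with the scaling, and no member passed (0 of 5, limma adjusted p from 0.415 to 0.954), against 0% of all assays called and 12.6% at an unadjusted p under 0.05, none a member. With the replicate number as a block on this scale, 0% of all assays were called and 21.6% (48) had an unadjusted p under 0.05, among them miR-30e (limma adjusted p = 0.195). MiR-30c and miR-30e were below 0 in 5 of 5 pairs, which 12.2% of all tested assays were, and miR-30b in 4 of 5. For miR-30c the exact two-sided permutation of 5 against 5 gave p = 0.0317, where the smallest p it allows is 0.00794. Limma over all 222 assays gave miR-30c an adjusted p of 0.458. The same permutation gave p = 0.460, 0.175, 0.778 and 0.103 for miR-30a, miR-30b, miR-30d and miR-30e. With U6 scaling it gave 0.571 to 0.929 for the members. Its use on the median-centred scale was added once the data were known, and its share over all assays was not counted. The median-centred Ct of miR-30c was -3.76, -3.79, -3.12, -3.77 and -4.07 in stellate samples and -4.16, -4.01, -3.93, -4.02 and -4.15 in non-stellate samples. Stellate 5 lay among the non-stellate samples and the other stellate samples lay above them. No member separated the groups without overlap under either scaling (0 of 5). Over all assays, 0% did so with U6 scaling, and after median centring 2.7% were higher and 1.35% lower in all stellate samples.

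**Figure D2:**
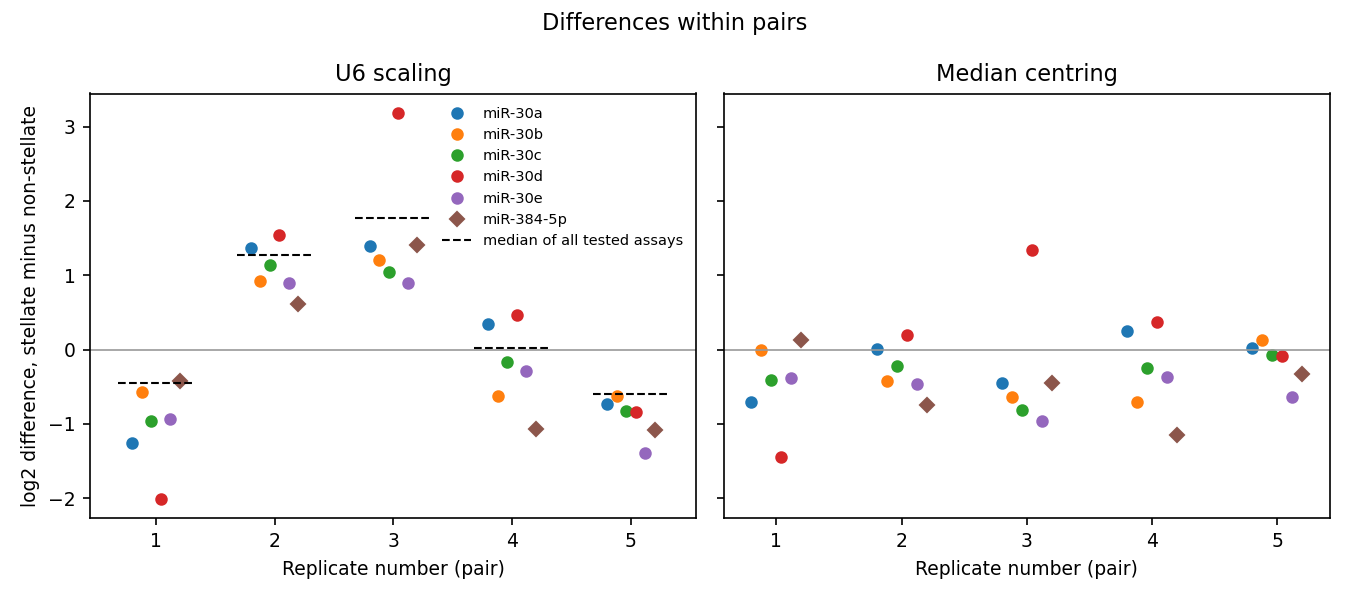
Log2 difference, stellate minus non-stellate (vertical axis), within each of the 5 replicate numbers (horizontal axis), with U6 scaling on the left and median centring on the right. Dots are members, diamonds are miR-384-5p and the dashed lines are the median of the 222 tested assays. With U6 scaling the members follow the dashed lines, from -0.45 in pair 1 to 1.77 in pair 3, and miR-30d departs from the rest at -2.004 in pair 1 and 3.19 in pair 3.

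Markers of other cell types were read in the same samples. Limma called none of the tested markers between stellate and non-stellate cells (0 in each list), which does not show equal levels. The study itself reports several miRNAs as up-regulated in stellate cells, among them miR-143 of the vascular list and miR-150 of the blood list. With U6 scaling, 0% of all tested assays were called here, and the source of this conflict was not tested. With U6 scaling, log2 differences ran from 0.84 to 2.69 for the vascular list. They ran from -0.77 to 2.37 for the blood and microglial list and from -0.41 to 1.70 for the neuronal list. The median log2 differences with U6 scaling were 1.42 for 4 of 4 tested vascular miRNAs, 0.64 for 4 of 6 blood and microglial miRNAs and 0.97 for 5 of 5 neuronal miRNAs. The summed level of the vascular list, on a log2 scale relative to U6, ranged from -10.2 to -5.96 in stellate and from -11.0 to -8.05 in non-stellate samples. That of the blood and microglial list ranged from -9.11 to -5.22 and from -10.6 to -8.24, with miR-142-5p and miR-451, a red blood cell miRNA, undetermined in all sorted samples. The neuronal list ranged from -3.06 to -1.84 and from -4.21 to -1.44, so the sorted cells carried neuronal miRNAs. Oligodendrocyte miRNAs were determined in 3 stellate samples, between -18.5 and -16.8, with miR-219 undetermined in all 5. They were determined in 2 non-stellate samples, between -14.1 and -13.4, with miR-338-3p undetermined in all 5. The part of these cell types in the differences of the miR-30 members was not tested.

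All 5 members were higher in tissue of day 23 than in sorted cells of day 4 or 5, by amounts close to each other. The standard errors below include shifts shared by a whole sample, so they do not measure differences between members. With U6 scaling the log2 difference, tissue minus the mean of both sorted groups, was 4.46 ± 0.68 for miR-30a, 4.47 ± 0.60 for miR-30b, 4.45 ± 0.62 for miR-30c, 4.43 ± 0.88 for miR-30d and 4.52 ± 0.67 for miR-30e (SE, 2 against 10). At a doubling per cycle these are 22.1-fold, 22.2-fold, 21.9-fold, 21.6-fold and 22.98-fold. Limma's adjusted p was 0.00014, 6.6e-05, 9.3e-05, 0.00089 and 0.00012. Of all 222 assays, 62.2% were called higher and 1.35% lower, and the median difference was 3.02, so that each member lay at least 1.42 above the median assay. They held places 53, 55, 57, 58 and 59 of 222 by the size of the difference, within 7 places of each other. In bulk samples such as these, fewer cells of a type and less RNA per cell cannot be told apart.

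After median centring the members were higher in tissue by 1.47 ± 0.30 for miR-30a, 1.48 ± 0.31 for miR-30b, 1.46 ± 0.26 for miR-30c, 1.45 ± 0.46 for miR-30d and 1.53 ± 0.37 for miR-30e (SE). Limma's adjusted p was 0.0021, 0.0021, 0.00082, 0.024 and 0.0051, which is 5 of 5 members called. On this scale 23.9% of all assays were called higher and 25.2% lower, with a median of 0.03. At a doubling per cycle the members were between 2.72-fold and 2.89-fold higher. Both tissue samples exceeded all 10 sorted samples for 5 of 5 members under either scaling. Of all tested assays, 68% did so with U6 scaling and 27% after median centring, while 0.901% and 26.1% were below all sorted samples in both tissue samples. The exact two-sided permutation gave p = 0.0303 for each member under each scaling, the smallest p that 2 against 10 allows.

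The size of the gap rested on the reference. With Y1, a small cytoplasmic RNA, as reference the differences were 0.96, 0.97, 0.95, 0.93 and 1.02 for miR-30a to miR-30e, and 0 members passed (limma adjusted p from 0.254 to 0.302), when 7.66% of all assays were called higher and 23% lower around a median of -0.49. U6 Ct minus the median Ct of the 176 assays ran from -12.3 to -9.89 cycles in sorted cells and from -8.10 to -7.74 in tissue. Y1 Ct minus that median ran from -3.87 to -1.91 in sorted cells and from -3.92 to -3.29 in tissue, so that the ranges of Y1 overlapped between sorted cells and tissue and those of U6 did not. With the tissue samples averaged and counted as 1, 5 members passed with U6 scaling, when 47.3% of all assays were called higher and 0.45% lower. After median centring, miR-30d (limma adjusted p = 0.127) and miR-30e (0.0525) no longer did, leaving 3 of 5 members called, with 11.7% of all assays called higher and 17.6% lower. Without non-stellate 3 and 5, all 5 members passed after median centring, with differences from 1.33 to 1.65, when 25.2% of all assays were called higher and 27% lower.

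Other lists of the card give a scale for these values. The miR-29 family, known for its rise as the brain matures, was higher in tissue for 3 of 3 members, with medians of 9.02 with U6 scaling and 6.03 after median centring. Limma called 5 of 9 assays of let-7 and miR-98, a family tied to differentiation, higher and 0 lower with U6 scaling (median 2.08). After median centring it called 0 higher and 5 lower (median -0.91), with differences from -3.44 to 1.72. The miR-30 members were thus higher under both scalings, while the median of the let-7 list changed sign. By sign alone, 192 of all 222 assays were higher in tissue with U6 scaling and 114 after median centring. A kept direction was therefore not particular to the miR-30 family. With U6 scaling, limma called 4 of 4 vascular, 4 of 4 tested blood and microglial and 5 of 5 neuronal miRNAs higher in tissue. After median centring it called 2, 1 and 2 higher. On that scale the log2 differences of these lists ran from 1.97 to 3.79, from -0.21 to 3.03 and from 0.17 to 1.82. Summed levels in the tissue samples were -3.52 and -2.99 for the vascular list, -4.36 and -4.07 for the blood and microglial list, 0.49 and 0.91 for the neuronal list and -9.90 and -9.03 for the oligodendrocyte list, with no marker undetermined. With U6 scaling, the only scaling used for these sums, all lay above the sorted ranges. Their part in the higher miR-30 levels of tissue was not tested.

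**Figure D3:**
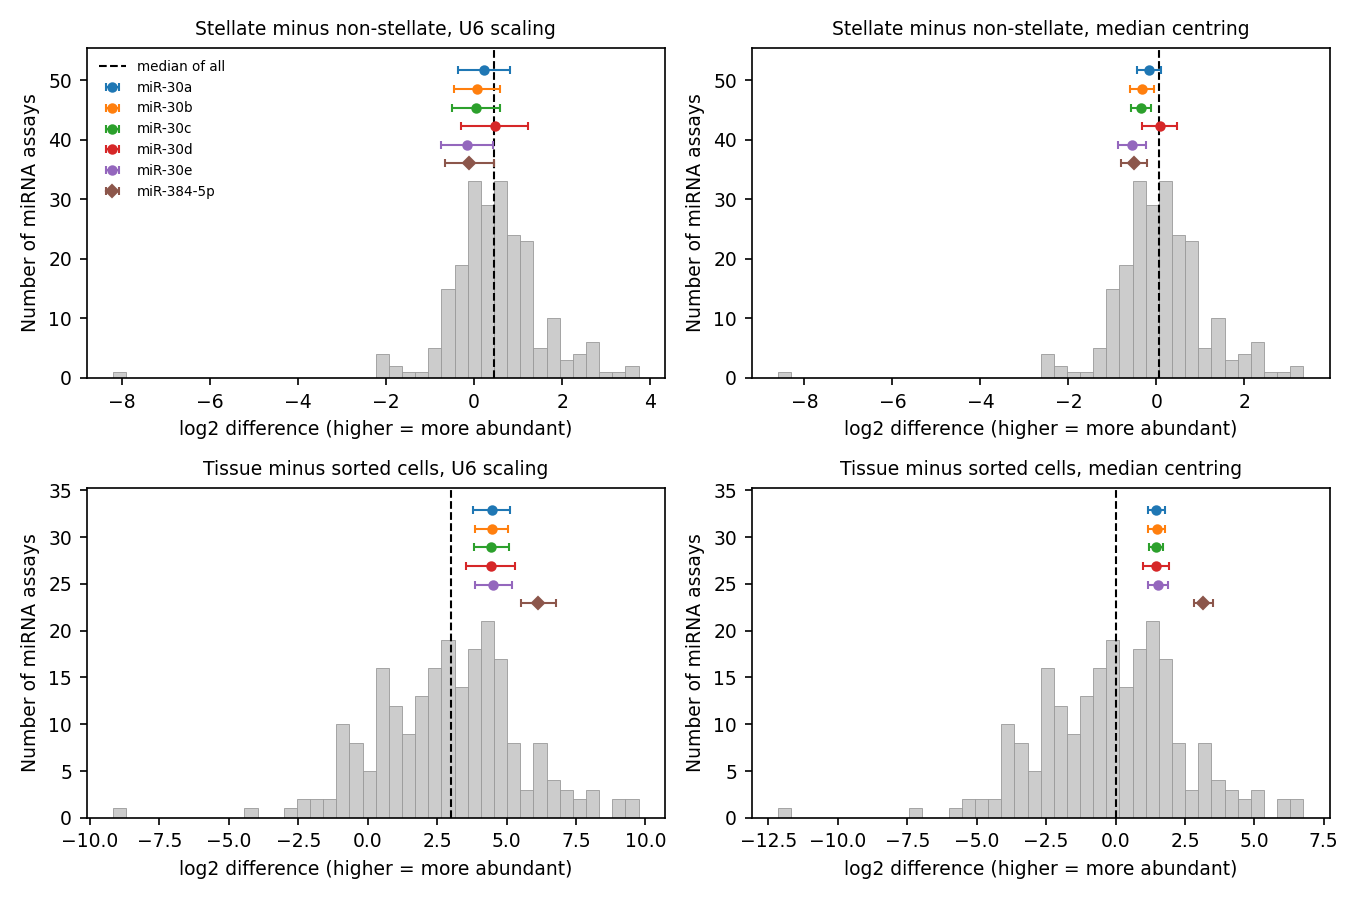
Histograms of the log2 difference (horizontal axis, higher is more abundant) over the 222 tested miRNA assays (vertical axis, number of assays), with the members as points and their SE as bars placed above the histogram, and the median of all assays as a dashed line. The upper panels show stellate minus non-stellate cells and the lower panels tissue minus sorted cells, with U6 scaling on the left and median centring on the right. In the lower panels the 5 members stand in a column, from 4.43 to 4.52 and from 1.45 to 1.53, to the right of the median of 3.02 and 0.03, with miR-384-5p farther right at 6.15 and 3.16.

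The distance between members within a sample does not depend on the scaling, since any value subtracted from the whole sample cancels. From sorted cells to tissue, the mean Ct difference of the 10 pairs of members changed by 0.01 to 0.09 cycles, with a median of 0.03. For all 15400 pairs of the 176 assays the median change was 2.14 cycles, and 2.30% of pairs (354) changed by no more than the most changed pair of members. The limit of 0.09 moved with single samples: the most changed pair of members reached 0.213 cycles without tissue 1, 0.244 without tissue 2, 0.232 without stellate 1, 0.140 without stellate 3 and 0.255 without non-stellate 3. It was 0.325 without non-stellate 3 and 5, 0.404 for tissue against stellate cells alone and 0.230 against non-stellate cells alone, and 8.52%, 10.5% and 5.70% of all pairs then changed by no more than this. MiR-30c minus miR-30b was -0.54 ± 0.312 in stellate samples, -0.56 ± 0.118 in non-stellate samples (SD, n = 5 each) and -0.53 ± 0.0976 in tissue (SD, n = 2). MiR-30b minus miR-30a was -2.56 ± 0.640, -2.72 ± 0.152 and -2.65 ± 0.107 in the same groups, and miR-30d minus miR-30a was 2.20 ± 0.476, 2.45 ± 0.528 and 2.35 ± 0.119. For these 3 pairs, the tissue mean differed from the mean of each sorted group by less than the SD of that group. MiR-30e departed from this in stellate cells, where miR-30e minus miR-30a was 0.69 ± 0.207 against 0.43 in tissue, and miR-30e minus miR-30d was -1.52 ± 0.330 against -1.92.

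Among the 10 sorted samples the distances were looser. The SD of the Ct difference ran from 0.223 cycles for miR-30b and miR-30c to 0.778 for miR-30b and miR-30d, with a median of 0.504 over the 10 pairs of members and of 0.995 over all 15400 pairs, and 6.65% of all pairs had an SD at or below 0.504. The difference of 2 U6 wells of the same sample had an SD of 0.518, close to the median over the pairs of members. Pairs with miR-30d had SDs from 0.491 to 0.778, and pairs of the other members from 0.223 to 0.604.

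**Figure D4:**
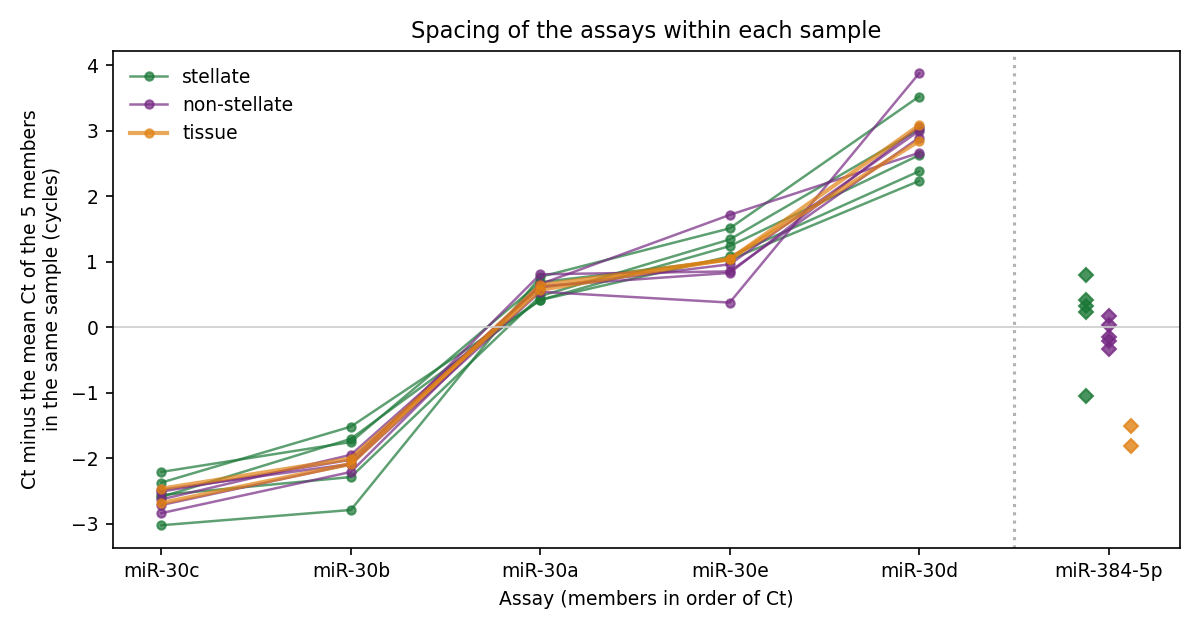
Ct of each member minus the mean Ct of the 5 members in the same sample (vertical axis, cycles; lower is more abundant), with 1 line per sample, and the same value of miR-384-5p as diamonds on the right. The tissue lines run inside the bundle of sorted lines, whereas miR-384-5p lies below all 10 sorted samples in both tissue samples. The highest point of the bundle is miR-30d in non-stellate 3.

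MiR-384-5p, which has the seed without the rest of the sequence and is known from synaptic plasticity in the hippocampus, followed another course. Its U6-scaled Ct was 9.56, 9.10, 9.89, 9.78 and 10.2 in stellate samples 1 to 5 and 9.14, 9.71, 11.3, 8.71 and 9.10 in non-stellate samples 1 to 5. In tissue it was 3.19 and 3.80. Its log2 difference between stellate and non-stellate cells was -0.11 ± 0.56 with U6 scaling (SE, limma adjusted p = 0.980) and -0.50 ± 0.29 after median centring (limma adjusted p = 0.422). In tissue it was higher by 6.15 ± 0.64 with U6 scaling (limma adjusted p = 2.3e-05), by 3.16 ± 0.34 after median centring (2.9e-05) and by 2.65 ± 0.66 with Y1 (0.0089), the 22nd of 222 differences by size. The median change over all 15400 pairs of assays was 2.14 cycles between sorted cells and tissue. The distance of miR-384-5p to the 5 members changed by less than that, 1.63 to 1.72 cycles. Across the samples left out and the sorted groups taken alone, it changed by 1.43 to 2.01 cycles, and the distances between members by at most 0.404. For instance, miR-384-5p minus miR-30b was 2.15 ± 0.290 cycles in stellate samples, 1.97 ± 0.190 in non-stellate samples and 0.38 ± 0.161 in tissue. In both tissue samples, at 0.27 and 0.50, it was below every sorted sample, of which the lowest was 1.74. The distances to miR-30a and miR-30c did not overlap either, while stellate 1 overlapped with tissue for miR-30d (-4.57 against -4.89 and -4.35 in tissue) and for miR-30e (-2.56 against -2.85 and -2.55).

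The assays most like the family were sought by Pearson's r between the median-centred Ct of an assay and the mean of the 5 members, among 171 other assays determined in all samples. Samples of this comparison share the centring and the card. Over the 10 sorted samples, miR-135a (r = 0.867), miR-130b (0.855) and miR-335-5p (0.844) were closest, and miR-384-5p was in place 74 (0.193). Over all 12 samples, where the 2 tissue samples stand apart from the rest and raise r, miR-335-5p (0.975), miR-26a (0.948) and miR-135a (0.944) were closest, and miR-384-5p was in place 10 (0.888). The members themselves were not uniformly alike in the sorted samples, with r from -0.247 for miR-30b and miR-30d to 0.807 for miR-30b and miR-30c, and 0.664 for miR-30a and miR-30e. Each r rests on 10 samples and is a description.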

How the data were processed

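MiRNAs were measured after Megaplex preamplification and reverse transcription on the Rodent A card of TaqMan assays (384 wells). The raw table deposited by the authors holds Ct, a log2 scale with no normalization, with 40 in undetermined wells; the highest determined Ct was 38.2. The normalized table deposited by the authors, also log2, equals Ct minus the mean of the 4 U6 wells. The authors' deposited tables of fold ratios per replicate and of limma fold changes, p-values and scores were not used. Cards have no read depth, so determined wells and reference Ct stand in for it, and wells were single except U6.

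The members and lists were chosen with earlier results of these data known. Named assays were the members, assays with their seed, passenger arms, and the 3 assays most correlated with the members' mean over 12 and over 10 samples. The 222 assays with no more than 3 undetermined wells among the sorted samples were tested with limma 3.58.1 in R 4.3.3 (lmFit, eBayes, two-sided, Benjamini-Hochberg over 222, threshold 0.05) on U6-scaled Ct with the sign turned so that higher is more abundant: 10 sorted samples for stellate against non-stellate, and all 12 for tissue. Exact permutations used 252 splits (5 against 5) or 66 (2 against 10). Alternatives changed scaling, undetermined wells, filter, moderation, block and samples; median centring combined with samples left out, with averaged tissue or with permutation, and the change of distances with samples left out, were added once the data were known. The labels give 5 biological replicates, so equal numbers were read as pairs; across assays, the deviations of paired samples from their group means had r = 0.331, 0.119, 0.256, 0.155 and 0.0743, and those of unpaired samples a mean r of -0.0481. The tissue samples differed from each other with an SD of 0.467 cycles over 176 assays, against 0.288 for repeated U6 wells in tissue and 0.518 over all samples, and were counted as 2 because the labels call them biological replicates. Simulated data for stellate against non-stellate had 222 assays, 40 of them changed, in 20 sets. Of the changed assays, 32.8% were recovered at a log2 change of 2 and 85.1% at 4. Noise was drawn for each assay on its own, without the shifts shared by whole samples. The smallest nonzero change simulated, 2, exceeded the differences of all members. These rates therefore do not give the power for the members.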

Additional observations from a re-analysis of the deposited data

Results flagged for a closer look

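In 5 of 54 groups of values, a sample stood farther from the others of its group than the 95% limit for 5 samples. Chance would give 2.7 if the groups were independent. They share assays and samples, so the count cannot be judged against 2.7. In stellate 1, miR-30c minus miR-30a was -3.79 cycles, against -3.04 to -2.79 in the other stellate samples. The other 4 concerned miR-30d in non-stellate 3. Its median-centred Ct was 2.66 there, against 1.34 to 1.61 in the other non-stellate samples. MiR-30d minus miR-30b was 5.96 cycles (4.87 to 5.08 in the others), miR-30d minus miR-30c was 6.59 (5.37 to 5.62), and miR-384-5p minus miR-30d was -3.70 (-3.15 to -2.99). The U6 wells of non-stellate 3 also scattered most, with an SD of 0.817 cycles.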

How the results depend on the processing

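Between stellate and non-stellate cells limma called no member (0) under any alternative run, and the sign differed from that with U6 scaling in 79 of 225 values. It turned negative for miR-30a, miR-30b and miR-30c with median centring (-0.17, -0.33, -0.35, the same with its exact permutation or the replicate block), the global mean (-0.11, -0.27, -0.29, the same with the replicate block) and quantile normalization (-0.29, -0.48, -0.30). Without non-stellate 3 and 5 the differences were -0.0037 for miR-30a, -0.21 for miR-30b, -0.24 for miR-30c and -0.047 for miR-30d. MiR-30e and miR-384-5p turned positive with snoRNA202 (0.62, 0.68), Y1 (0.14, 0.20) and raw Ct (0.65, 0.71). With single samples or pairs left out and U6 scaling, differences ran from -0.11 to 0.59 for miR-30a, -0.29 to 0.26 for miR-30b, -0.29 to 0.29 for miR-30c, -0.21 to 1.09 for miR-30d, -0.43 to 0.16 for miR-30e and -0.54 to 0.13 for miR-384-5p; leaving out non-stellate 3 turned all of the first 4 negative. With median centring they ran from -0.28 to -0.01, -0.49 to -0.20, -0.44 to -0.21, -0.17 to 0.37, -0.78 to -0.39 and -0.70 to -0.40. The replicate block on U6 scaling called 0 assays, with 26 at an unadjusted p under 0.05, on median centring 0, with 48, and with the global mean 1 higher, not a member. The block changed no member's call.

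Tissue against sorted cells kept all 5 calls in every setting but Y1 (0 members) and median centring with tissue averaged as 1 (3 members), so 173 of 180 values kept their side of the threshold. Assays called higher numbered 53 with median centring, 63 with the global mean, 17 with Y1, 55 with quantile normalization and 26 with median centring and averaged tissue, against 138; those called lower numbered 56, 49, 51, 59 and 39, against 3, and 1 with raw Ct, 5 with Ct capped at 35, 6 with assays determined in at least 1 sorted sample and 1 with averaged tissue. With samples left out, 96 to 146 were higher and 1 (without tissue 1) to 5 (without pair 1 or pair 3) lower with U6 scaling, and 50 to 57 higher and 53 to 60 lower after median centring. The cause of these moves was not tested. Distances between members kept within 1 SD in 150 of 150 values. Scaling cancels in a distance, so this count was largely set in advance. It does not show that the spacing was alike in tissue and sorted cells. The members were determined in every well, but miR-30d came late in non-stellate 3, at a raw Ct of 32.9 and place 160 of 216. The part of signal depth was not tested. That tissue had only 2 samples limits every comparison with tissue.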
